A study of Mus musculus with 4 samples.

Results

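Tuft cells of mouse small intestinal adenomas were examined by single-cell RNA sequencing. A barcode was taken as a tuft cell when it held at least 1000 unique molecular identifiers (UMIs, 1 per captured RNA molecule), at least 200 genes and at most 20% mitochondrial UMIs, and when at least 3 of the 5 genes Dclk1, Rgs13, Trpm5, Sh2d6 and Gng13 were detected. The rule gave 95 tuft cells among 12349 barcodes that met the limits on UMIs, genes and mitochondrial RNA. By library these were 12 of 2797 (ApcMin replicate 1), 16 of 2959 (VApcMinL replicate 1), 25 of 2145 (ApcMin replicate 2) and 42 of 4448 (VApcMinL replicate 2), and values for 4 libraries are given in this order below. The levels of the 5 genes chose the cells and are given as a description.

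All mice were labelled C57BL/6, male and 11 weeks old, and all carried the ApcMin/+ mutation, a defect in the tumor suppressor Apc that leads to adenomas. The ApcMin libraries had the genotype ApcMin/+;Lef1 +/+, and the VApcMinL libraries had ApcMin/+;Lef1 fl/fl; Villin-Cre, in which Cre driven by the Villin promoter is meant to delete Lef1, a Wnt pathway transcription factor, throughout the intestinal epithelium from the start. Each library pooled 3 to 10 dissociated, unsorted tumors, so the cells of a library need not come from 1 tumor. Kit V2 of the 10x Genomics 3′ system was used for both libraries numbered 1 and kit V3 for both numbered 2 (kit 2 and kit 3 below), so either kit held 1 library of each label. Nothing in the labels says which libraries came from separate mice, so p values measure the spread between these libraries.

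Tuft cells are rare chemosensory cells of the intestinal epithelium with a bundle of long apical microvilli. They sense luminal metabolites through a taste-type pathway in which a receptor and its G protein activate a phospholipase, calcium is released and the channel Trpm5 opens, and they then release interleukin-25, leukotrienes and acetylcholine. The POU factor Pou2f3 is required for them to form, and in the mouse gut a neuron-like (tuft-1) and an immune-like (tuft-2) form have been described.

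The 4 libraries held 44660305 to 128247396 UMIs, and the tuft cells held 148389, 143741, 473758 and 788132 of them. A tuft cell held a median of 10109 UMIs (range 1904 to 90917) and 3318 genes, against a median of 15745 UMIs in the other kept barcodes. The mitochondrial limit removed between 24.4% and 62.6% of the barcodes of a library, most in ApcMin replicate 2. The kit 2 libraries shared 18 barcode sequences, and 1 was shared by ApcMin replicate 1 and VApcMinL replicate 2.

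The labels were checked in the tuft cells themselves. Lef1 had 1, 4, 3 and 6 UMIs, in 1, 2, 3 and 5 tuft cells, and in the other epithelial barcodes it stood at 4.53, 10.4, 9.23 and 15.1 CPM (UMIs per 1000000 UMIs of the barcodes summed). Lef1 was therefore higher in the library labelled VApcMinL than in the ApcMin library of the same kit, in both kits. Counts of 3′ ends can include transcripts that lack deleted internal exons, so Lef1 counts alone do not check the deletion. Xist, the RNA that coats the inactive X chromosome of female cells, had 0, 200, 0 and 310 UMIs in tuft cells, and was found in 16 of 16 and 15 of 42 tuft cells of the VApcMinL libraries and in none of the ApcMin libraries. Y-linked genes (Ddx3y, Uty, Kdm5d and Eif2s3y) were found in 6, 0, 17 and 19 tuft cells. Although every library was labelled male, Xist and the Y-linked genes thus separated the tuft cells of the kit 2 pair, and VApcMinL replicate 2 held tuft cells of both kinds, with 5 showing both signals. Among the other epithelial barcodes, Msx1, a gene of ectopic crypts, stood at 76.2, 10.4, 12.3 and 152 CPM and Myc at 25.95, 14.7, 13.4 and 35.8 CPM, so the kits went opposite ways. Whether the labels of the kit 2 pair are right, and whether VApcMinL replicate 2 pooled mice of both sexes, could not be settled here, and every signed difference below rests on the labels. A difference between the labels cannot be told apart from one that goes with Xist, and the libraries are called by their labels throughout.

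The gene for Siglecf, a sialic acid-binding receptor of the immune type, and that for Cd300lf, an inhibitory receptor of the same broad kind, are shown here because both are among the leading tuft genes, and because tuft cells were split by Siglecf below and Cd300lf followed that split. The windows are the 250 bases before the RefSeq transcript start (GRCm38.p6), written 5′ to 3′ on the strand of the gene, chr7:43351091-43351340 on the + strand for Siglecf and chr11:115133993-115134242 on the - strand for Cd300lf. Capitals mark GGAAGT, a core recognised by ETS factors such as Spib, which starts 22 bases before the start of Siglecf and 14 bases before that of Cd300lf.
Siglecf: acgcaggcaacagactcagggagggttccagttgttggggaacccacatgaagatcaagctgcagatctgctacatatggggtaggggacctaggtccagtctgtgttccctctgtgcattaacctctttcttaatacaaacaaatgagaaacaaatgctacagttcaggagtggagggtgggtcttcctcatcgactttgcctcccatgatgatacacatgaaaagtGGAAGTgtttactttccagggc
Cd300lf: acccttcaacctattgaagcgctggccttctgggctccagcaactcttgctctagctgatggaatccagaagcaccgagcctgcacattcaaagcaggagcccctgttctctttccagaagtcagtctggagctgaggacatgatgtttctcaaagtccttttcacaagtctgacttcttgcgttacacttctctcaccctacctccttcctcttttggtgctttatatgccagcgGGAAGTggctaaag
On either strand GGAAGT was found in 2 of the 20 windows of the 16 leading tuft genes that the RefSeq table held (10.0%), these 2, against 19.7% of 32851 windows of all genes. The octamer ATGCAAAT, the classical POU motif, was in 0 of the 20 windows and in 1.60% of all windows. The motif is thus not more frequent near the leading tuft genes, and a window without the letters says nothing of a factor.

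Markers outside the rule were more frequent in the chosen cells than in the rest, with overlap at the edge of the rule. Of 21 further tuft markers, the 13 cells with 3 rule genes had a median of 9 detected (range 2 to 11), the 39 with 4 and the 43 with 5 both had 14 (6 to 18), and the 57 barcodes just outside, with 2 rule genes, had 3 (0 to 11). Alox5ap, the activating protein of 5-lipoxygenase, was found in 4.11% of barcodes with no rule gene, 5.26% with 2, 38.5% with 3, 94.9% with 4 and 93.0% with 5. The 57 barcodes just outside were deeper (median 33562 UMIs) than the 13 just inside (21211 UMIs). All 95 tuft cells had at least 3 of the 6 epithelial genes Epcam, Cdh1, Cldn7, Krt8, Krt18 and Krt19, and none had 3 or more enteroendocrine, T cell, macrophage, B cell, fibroblast or endothelial markers, while 1 had 3 or more mast cell markers. Markers of other epithelial lineages were frequent: at least 3 were detected in 77 (enterocyte), 40 (goblet) and 26 (Paneth) of the 95 cells. Doublets were kept, and removing the barcodes with the highest doublet scores, 1.72% to 3.56% of a library, would have taken 14 of the 95 tuft cells and left 6, 16, 22 and 37 of 12, 16, 25 and 42. The part of doublets in the values was not tested beyond the comparisons given without them. By these markers the name tuft held for most cells with 4 or 5 rule genes, though some had as few as 6 of the 21. The cells with 3 rule genes were mixed. All 14 cells with the highest doublet scores had 4 or 5 rule genes.

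**Figure D1:**
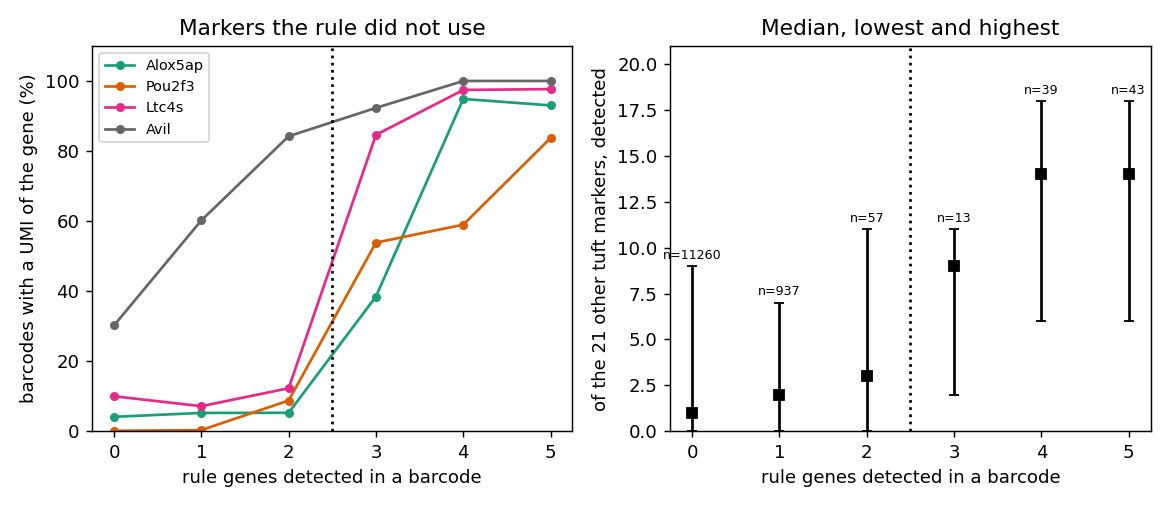
Left, percent of kept barcodes with at least 1 UMI of Alox5ap, Pou2f3, Ltc4s or Avil (y axis) by the number of the 5 rule genes detected (x axis). Right, median number of 21 other tuft markers detected, with bars from the lowest to the highest barcode and the number of barcodes above each; the median goes from 3 at 2 rule genes to 9 at 3 and 14 at 4.

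Levels of the genes with the highest ratio of tuft cells to the other kept barcodes are a description, because the cells were chosen on this contrast. Of 5482 genes detected in at least 10% of the tuft cells of every library, 244 (4.45%) were at least 2-fold higher in tuft cells in all 4 libraries and 30 (0.547%) at least 2-fold lower. The 20 leading genes include the 5 rule genes. Rgs13 (chr1:144138654-144177372, - strand, GRCm38 annotation), a regulator that shortens G protein signals, stood at 1173, 1503, 899 and 765 CPM in tuft cells, 9.48 ± 0.20 log2 units (SD over 4 libraries) above the others. Pou2f3 (chr9:43123939-43210369, - strand), the tuft lineage factor, stood at 101, 202, 94.99 and 131 CPM (6.82 ± 0.41). Every one of these values in tuft cells lay above every value in the other barcodes.

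Several other leading genes encode kinases, adaptors and receptors. Matk, a kinase that restrains Src kinases, stood at 640, 696, 524 and 528 CPM, and Bmx, a Tec family kinase, at 115, 167, 171 and 119 CPM. Sh2d7, an SH2 domain protein, stood at 195, 195, 144 and 102 CPM, with 8 UMIs in all 12254 other barcodes. Spib, an ETS factor, stood at 236, 397, 169 and 127 CPM, and Hmx2, a homeobox factor, at 108, 160, 80.2 and 109 CPM. Further leading genes were Dclk1, Sh2d6, Ly6g6f, Gng13, Lrmp, Trpm5, Strip2, Alox5ap, Pik3r5, Siglecf, Cd300lf and Ffar3, with mean log2 ratios from 5.99 (Ffar3, a receptor for short-chain fatty acids) to 8.24 (Sh2d6). Alox5ap was also present in mast-type barcodes, at 173 CPM, and it is the leading gene with the most UMIs in other barcodes (1363).

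**Figure D2:**
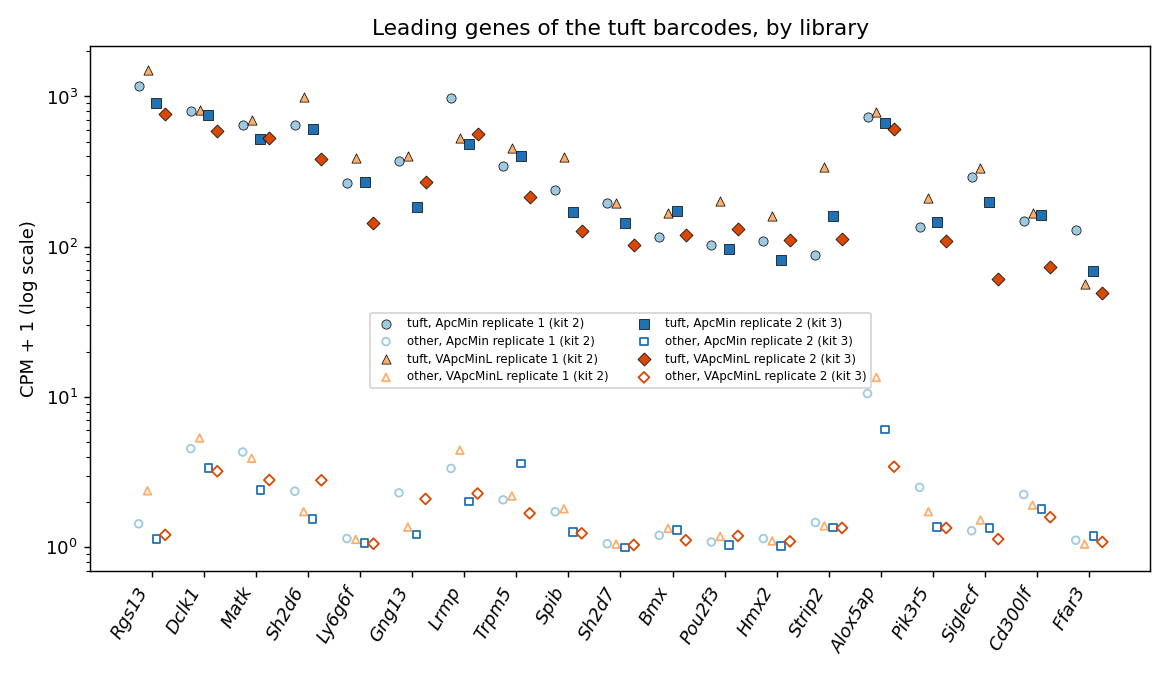
Level in CPM plus 1 (log axis) of the leading genes in tuft cells (filled) and in the other kept barcodes (open), 1 point per library. In every gene and library the filled point lies above the open one; for Rgs13 tuft cells range from 765 to 1503 CPM.

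Genes of the taste-type pathway were high where they could be judged. Of 15 genes, 7 were detected in at least 10% of tuft cells of every library. All 7 were at least 2-fold higher in all 4 libraries, against 4.45% of the 5482 genes held to that limit. Of these 7, 3 (Rgs13, Trpm5 and Gng13) belong to the rule. The median of the mean log2 ratios was 5.99 over these 7, against 0.12 over the 5482 genes held to the same detection limit, and 2.97 over all 15. The 3 rule genes, whose detection chose the cells, lay above 5.99, at 9.48 (Rgs13), 7.45 (Gng13) and 7.21 (Trpm5). The limit counts detection in tuft cells only, so genes low in them were not judged. Itpr3, 1 such gene, stood at 6.74, 41.7, 44.3 and 39.3 CPM, against 45.8, 42.1, 42.2 and 55.0 CPM in other epithelial barcodes. Of all 15, 8 were higher than in the other barcodes in all 4 libraries and 0 lower in all 4. Plcg2, a phospholipase C, stood at 115, 146, 154 and 114 CPM, 4.12 ± 0.35 log2 units above the others. The calcium release channel Itpr2 stood at 74.1, 278, 258 and 237 CPM. Plcb2, the phospholipase of taste cells, stood at only 40.4, 6.96, 50.7 and 15.2 CPM and was found in 23.2% of tuft cells, and the taste G protein Gnat3 in 11.6%. Sucnr1, the receptor for succinate, had 0 UMIs in both kit 2 libraries and stood at 40.1 and 7.61 CPM in the kit 3 libraries.

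Of the 12 transcription factors, 10 could be judged. At least 2-fold higher in all 4 libraries were 6 of the 10, against 4.45% of the 5482 genes held to the same limit. None of the 10 was at least 2-fold lower, but the limit leaves out genes low in tuft cells. Of all 12, 8 were higher than in the other barcodes in all 4 libraries and 2 lower in all 4. Besides Pou2f3 and Spib, Sox9, a progenitor and Paneth cell factor, stood at 216, 306, 359 and 258 CPM (1.74 ± 0.34), and Ascl2, a stem cell factor and Wnt target, at 74.1, 146, 71.8 and 109 CPM (2.05 ± 0.84). Gfi1b, a repressor known from tuft cells, had 22 UMIs in 20% of the cells. Atoh1, the secretory lineage factor, had 1 UMI in 1554020.

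Genes for making leukotrienes were among the higher ones. Of 10 eicosanoid genes, 6 could be judged, a limit that leaves out genes low in tuft cells. All 6 were at least 2-fold higher in all 4 libraries, against 4.45% of the 5482 genes held to the same limit. Over all 10, 6 were higher than in the other barcodes in all 4 libraries and 2 lower in all 4. The median log2 ratio was 5.15 over the 6 and 3.28 over all 10. Alox5ap stood at 735, 786, 665 and 610 CPM. Ltc4s, which makes leukotriene C4, stood at 479, 877, 420 and 402 CPM (5.80 ± 0.53), and Hpgds, a prostaglandin D synthase, at 128, 216, 92.9 and 122 CPM (4.50 ± 0.56). Alox5, 5-lipoxygenase itself, stood at 175, 181, 112 and 36.8 CPM, lowest in VApcMinL replicate 2. Tbxas1 and Ptgds had 0 UMIs in tuft cells.

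Signals to immune cells and neurons were sparse. Il25, the cytokine of tuft cells, had 14 UMIs in 12 of 95 cells and 0 UMIs in ApcMin replicate 1. Chat, which makes acetylcholine, stood at 20.2, 13.9, 35.9 and 29.2 CPM (4.59 ± 0.56) in 30.5% of cells, while the choline transporter gene Slc5a7 had 0 UMIs. The receptor genes were more frequent: Il17rb, a subunit of the interleukin-25 receptor, stood at 47.2, 76.5, 57.0 and 30.5 CPM (4.75 ± 0.60), and Il13ra1, a subunit of the interleukin-13 receptor, at 162, 230, 217 and 166 CPM (2.02 ± 0.47). Of the 12 cytokine and receptor genes, 6 could be judged and 2 were at least 2-fold higher in all 4 libraries. Over all 12, 3 were higher than in the other barcodes in all 4 libraries and 4 lower in all 4. Of the 18 cytoskeleton and adaptor genes all 18 could be judged and 15 were at least 2-fold higher in all 4 libraries. For both lists the share over the 5482 genes held to the same limit was 4.45%. Among the 15 were Krt18, an epithelial keratin, at 5809, 7381, 5288 and 5606 CPM (2.29 ± 0.26) and Fyb, an adaptor of immune cells (5.45 ± 0.47).

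Genes of other epithelial lineages were among the lowest in tuft cells. Of the 5 enterocyte and 5 goblet markers that could be judged, 4 of each were at least 2-fold lower in all 4 libraries and none higher. Over the 5482 genes held to the same limit, 0.547% were at least 2-fold lower. Rbp2, a retinol carrier of enterocytes, stood at 391, 1280, 255 and 104 CPM in tuft cells against 1820, 5027, 10300 and 2217 CPM in the others. Summed enterocyte markers were present in tuft cells at 2413, 11470, 4507 and 972 CPM, and in barcodes with at most 100 UMIs, a measure of free RNA, at 11710, 23150, 17690 and 8057 CPM. The part of free RNA in the tuft values was not tested. Of 3 Paneth cell markers judged, 1, the defensin Defa24, was at least 2-fold lower in all 4 libraries, at 195, 69.6, 61.2 and 73.6 CPM against 3328, 627, 5275 and 1962 CPM. Of the 6 enteroendocrine markers, Neurod1, Scgn and Pax6 had 0 UMIs in tuft cells, and the sum stood at 6.74, 6.96, 0 and 7.61 CPM against 80.0, 23.8, 86.2 and 69.5 CPM in the other epithelial barcodes.

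Wnt targets were mixed. Of 14, 6 could be judged and 2 of them, Ascl2 and Sox9, were at least 2-fold higher in all 4 libraries. That compares with 4.45% of the 5482 genes held to the same limit. None of the 6 was at least 2-fold lower, but the limit leaves out genes low in tuft cells. Over all 14, 3 were higher than in the other barcodes in all 4 libraries and 3 lower in all 4. The median log2 ratio was 0.99 over the 6 and 0.13 over all 14. The summed level of the 14 was 782, 995, 1026 and 1018 CPM in tuft cells and 522, 892, 614 and 856 CPM in the other barcodes. The mean level of Lgr5, the stem cell receptor, was 66.0 CPM in tuft cells and 20.9 CPM in the other barcodes, and that of Nkd1, a Wnt feedback inhibitor, 154 and 126 CPM. Cell cycle genes were detected in part of the tuft cells. At least 3 of 10 (such as Mki67 and Top2a) were detected in 25 of 95 tuft cells (26.3%, exact 95% interval 17.8 to 36.4%), in 33.3, 12.5, 20 and 33.3% by library, and in 43.3% of the 10622 other epithelial barcodes. These 25 cells were deep, with a median of 33014 UMIs. After each barcode was thinned to 1000 UMIs, at least 2 of the 10 genes were detected in 6.32% of tuft cells and 13.3% of the others.

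Tuft cells differed among themselves in immune-like genes. Siglecf was detected in 49 of 95 cells (51.6%), in 66.7, 68.8, 60 and 35.7% by library, against 0.433% of the other barcodes. Thinned to 1000 UMIs the shares were 25, 37.5, 40 and 11.9%. The cells were split by whether Siglecf was detected, a split chosen after its values had been seen and reported with no test. Cells with Siglecf were shallower (median 6652 against 12015 UMIs) and had more mitochondrial RNA (11.4% against 5.96%). Most of the 14 tuft cells with the highest doublet scores had Siglecf. They made up most of the 8 cells with Siglecf in ApcMin replicate 1. The split was not repeated without them.

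Ptprc, the common leukocyte antigen CD45 and a tuft-2 gene, was found in 36 of the 49 cells with Siglecf, at 71.9, 213, 184 and 48.3 CPM by library, and in 1 of the 46 without, at 0, 0, 0 and 2.1 CPM. Alox5 stood at 360, 233, 246 and 93.3 CPM with Siglecf and at 12.7, 66.8, 7.50 and 0 CPM without. Summed T cell and macrophage markers were low on both sides over all cells (1.46 and 2.92 CPM with Siglecf, 3.46 and 3.46 CPM without). Their highest sums in a library were 14.4 and 14.4 CPM with Siglecf, and 12.7 and 22.25 CPM without. Summed mast cell markers stood at 0, 91.1, 67.6 and 0 CPM with Siglecf and at 25.35, 156, 52.5 and 6.28 CPM without. The part of RNA from immune cells in the Ptprc values was not tested. Enterocyte markers were higher with Siglecf in 3 of 4 libraries, with sums of 4144, 10050, 9515 and 1969 CPM with Siglecf and 887, 14600, 619 and 323 CPM without, and goblet markers stood at 338 against 847 CPM over all cells. Their part in the split was not tested. Summed tuft-2 genes stood at 2446, 2034, 2130 and 1068 CPM with Siglecf and at 203, 712, 427 and 767 CPM without. The sides did not overlap in Ptprc, Alox5 or the tuft-2 sum.

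Sox4 and summed Wnt targets were higher on the side without Siglecf. Most of the 13 cells with 3 rule genes, which were mixed in tuft markers, lay on that side. In ApcMin replicate 1 it was 4 cells. Most of their UMIs came from cells of 38382 and 23086 UMIs, both with all 10 cell cycle genes detected. The part of such cells in the values below was not tested. Sox4, a factor of progenitors and early tuft cells, stood at 57.6, 142, 14.5 and 341 CPM with Siglecf and at 1090, 1825, 761 and 966 CPM without. Nkd1 stood at 86.3, 81.0, 14.5 and 64.4 CPM against 190, 378, 225 and 233 CPM, and summed Wnt targets at 633, 547, 411 and 785 CPM against 913, 1981, 1504 and 1169 CPM, and the sides did not overlap in any of these. Single Wnt targets differed from the sum: Lgr5 stood at 57.6, 60.7, 14.5 and 57.9 CPM with Siglecf and at 12.7, 222, 112 and 44.0 CPM without, and Axin2 overlapped too. The neuron-like tuft-1 genes were not lower with Siglecf in every library, at 130, 111, 53.1 and 86.9 CPM against 50.7, 423, 240 and 342 CPM. Of 6832 genes with at least 20 CPM, 51 were at least 2-fold higher with Siglecf and 50 at least 2-fold lower in all 4 libraries. The first of these included Cd300lf (236 against 20.7 CPM over all cells), Tm4sf4 and Cdx1, an intestinal homeobox factor. The second included Clu, known from fetal-like and regenerating intestine (84.5 against 1891 CPM), Wfdc18 (33.5 against 931 CPM) and the gastric gene Gkn3 (43.7 against 2572 CPM). Gkn3 was detected in 21 of the 49 cells with Siglecf and in 19 of the 46 without, so the sides differed in its level and not in how often it was detected.

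**Figure D3:**
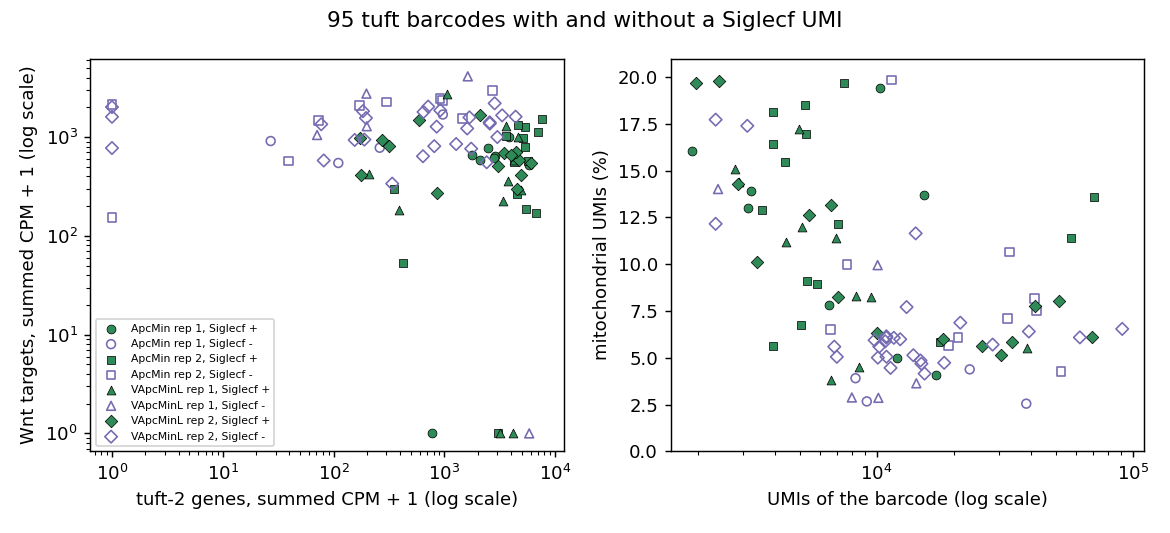
Each point is 1 tuft cell, filled where Siglecf was detected and open where it was not, with shapes for the 4 libraries. Left, summed tuft-2 genes against summed Wnt targets (both CPM plus 1, log axes). Right, UMIs against percent mitochondrial UMIs, where cells with Siglecf have a median of 6652 UMIs and 11.4%, and cells without it 12015 UMIs and 5.96%.

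The libraries were compared by their labels, which stand for deletion of Lef1 in Apc-mutant adenomas. The counts above did not check that deletion, and the labels of the kit 2 pair could not be settled. Tuft cells were 0.429, 0.541, 1.17 and 0.944% of kept barcodes, with exact 95% intervals from 0.222 to 0.748, 0.309 to 0.877, 0.756 to 1.72 and 0.681 to 1.27%. The means were 0.797 ± 0.521% (SD, n = 2) for ApcMin and 0.743 ± 0.285% for VApcMinL. The difference was -0.0548 percentage points (two-sided exact permutation test that took no account of kit, p = 1.0, smallest p possible 0.33). Within kits the difference was 0.112 in kit 2 and -0.221 in kit 3. Of epithelial barcodes alone, tuft cells were 0.550, 0.649, 1.28 and 1.02% (difference -0.0797 points, exact permutation p = 1.0). The groups overlapped in both measures and the kits differed in direction, so no difference in tuft cell share was detectable with 2 libraries a group.

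**Figure D4:**
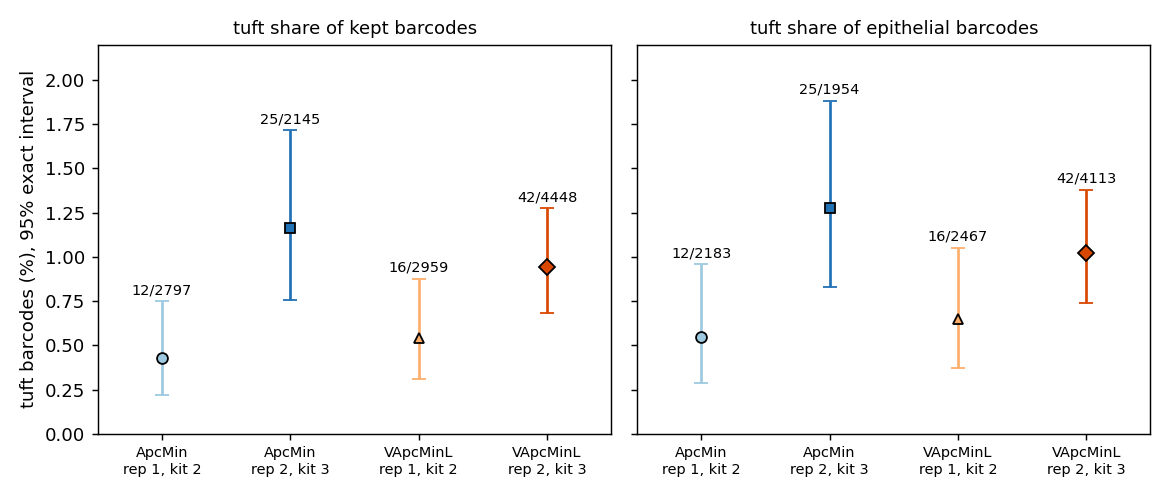
Tuft cells as a percent of kept barcodes and of epithelial barcodes in each library, with exact 95% intervals. The 2 kit 3 libraries (1.17 and 0.944% of kept barcodes) lie above the 2 kit 2 libraries (0.429 and 0.541%), and the labels overlap.

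Among 4643 genes tested on the summed counts of tuft cells, 1 was called between the labels (0.0215%; edgeR quasi-likelihood test with the kit as a block, Benjamini-Hochberg adjusted p under 0.05). This was Xist (log2 10.94, SE 0.98, adjusted p = 1.01e-05), whose counts were 0 in both ApcMin libraries, so the fitted value is no bound. An unadjusted p under 0.05 was reached by 49 genes, 21 higher and 28 lower in VApcMinL. DESeq2 called 0 genes (10 at an unadjusted p under 0.05).

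None of the 20 leading tuft genes was called, and their median log2 difference was -0.12, against -0.02 over all genes. It was 0.37 in kit 2 and -0.53 in kit 3. The groups did not overlap for Pou2f3 (higher in VApcMinL, log2 0.62, SE 0.41) and Ffar3 (lower, -0.82, SE 0.46), 1 of 20 in each direction, where 11.2% of all genes lay fully higher and 10.5% fully lower. Siglecf stood at 290, 334, 196 and 59.6 CPM, with the lowest value in VApcMinL replicate 2 (log2 -0.84, SE 0.49, adjusted p = 1.0 by edgeR). In none of the lists of tuft genes was a gene called: the medians were -0.19 for 9 taste-type genes tested, 0.04 for 10 transcription factors, -0.10 for 6 eicosanoid genes, -0.17 for 18 cytoskeleton and adaptor genes and -0.35 for 5 cytokine and receptor genes. The 4 tuft-1 genes had a median of 0.64, with 1.04 in kit 2 and 0.41 in kit 3. Of these 4, 2 were higher at an unadjusted edgeR p under 0.05, against 21 of all 4643 genes. The groups did not overlap for 2 of the 4, both higher, against 11.2% of all genes. The 5 tuft-2 genes had a median of -0.38, with 0.67 in kit 2 and -1.18 in kit 3.

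Apart from Xist, the genes with the smallest unadjusted p and the same direction in both kits are given as values and not as changes. Gkn1, a gastric mucosal protein, stood at 53.9, 111, 42.2 and 452 CPM (log2 2.50, SE 0.56, edgeR adjusted p = 0.610), and 71.5% of its 400 UMIs came from 1 cell of VApcMinL replicate 2. Tubb2b, a tubulin, stood at 53.9, 62.6, 21.1 and 176 CPM, and Dnajb1, a heat shock co-chaperone, at 20.2, 174, 25.3 and 57.1 CPM. Olfm4, a stem cell marker, stood at 0, 6.96, 97.1 and 240 CPM, with 53.0% of its UMIs in 1 cell, and its values differed more between kits than between labels.

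Among the lower genes, Agr2, a secretory cell chaperone, stood at 404, 41.7, 707 and 335 CPM (log2 -1.96, SE 0.53, edgeR adjusted p = 1.0). The replication genes Hist1h2ap, one of many near-identical histone genes whose reads may be shared, at 526, 55.7, 65.4 and 31.7 CPM, and Pclaf, at 175, 27.8, 120 and 59.6 CPM, had log2 differences of -2.09 and -1.57. Kcne3, a potassium channel subunit, stood at 175, 13.9, 154 and 82.5 CPM. These differences rested on the choice of cells: with at least 4 rule genes the log2 difference was -0.33 for Agr2, -0.17 for Pclaf, -0.76 for Kcne3 and 0.39 for Hist1h2ap, while a mitochondrial limit of 10% made Agr2 (-2.37, edgeR adjusted p = 0.000744) and Kcne3 (-2.06, adjusted p = 0.0346) pass the test. Without VApcMinL replicate 1 Agr2 stood at -0.87, and without VApcMinL replicate 2 at -3.79. Jchain, an antibody gene of plasma cells, stood at 458, 104, 6.33 and 3.81 CPM, and in the other epithelial barcodes at 10730, 2613, 242 and 167 CPM, so that the same order was found in cells of another kind. The part of free RNA in it was not tested.

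**Figure D5:**
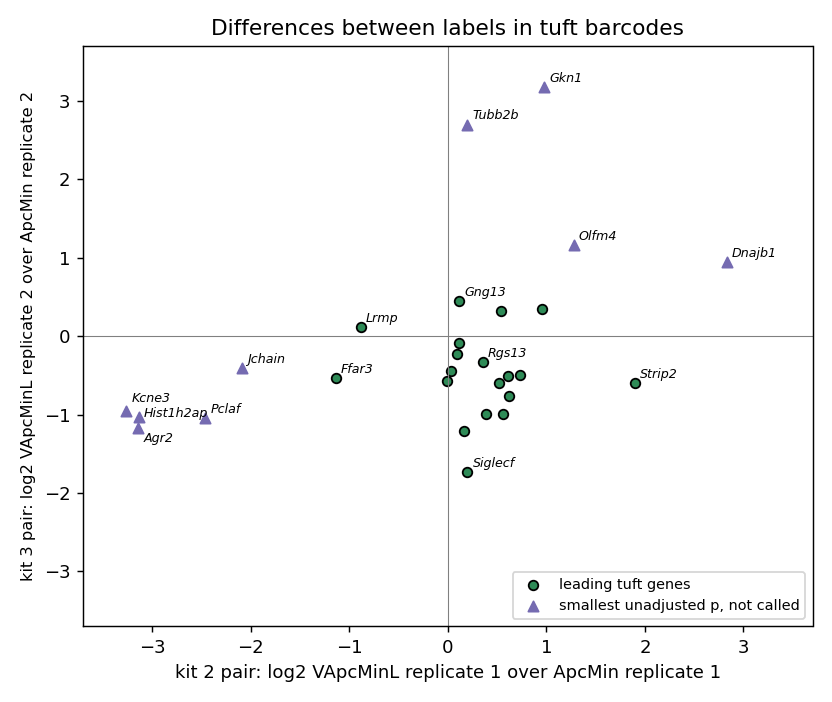
Log2 difference VApcMinL over ApcMin in the kit 2 pair (x axis) and in the kit 3 pair (y axis), on CPM with a prior count of 2, for the leading tuft genes and the 9 genes named by their p. The leading genes lie mostly right of 0 and below 0, and the medians over all 20 were 0.37 in kit 2 and -0.53 in kit 3.

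Whether tuft cells differ from the rest of the epithelium in how they respond to the label was tested as an interaction on 8 sums, tuft cells and other epithelial barcodes of each library. Of 14049 genes, 16 were called (0.114%; edgeR with Benjamini-Hochberg adjustment), 7 with a higher and 9 with a lower difference in tuft cells. Sct (chr7:141278330-141279133, - strand, GRCm38), the hormone secretin, was the only one also called by DESeq2. It stood at 175, 376, 249 and 231 CPM in tuft cells and at 162, 38.8, 178 and 37.1 CPM in the other epithelial barcodes. In tuft cells the labels overlapped (log2 0.38, SE 0.46), while in the other epithelial barcodes both VApcMinL values were below both ApcMin values, and the interaction was 2.66 log2 units (SE 0.40, edgeR adjusted p = 1.51e-07). Sct was found in 73 of 95 tuft cells, with 6.84% of its UMIs in the cell with most. Enteroendocrine-type barcodes held 20100 CPM of Sct and numbered 12, 8, 18 and 42, and barcodes with at most 100 UMIs held 82.2, 39.7, 70.9 and 32.8 CPM. Their part in the result was not tested. None of the lists of tuft genes held a called gene, and 9 of the 16 genes had at least 50% of their tuft UMIs in 1 cell.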

How the data were processed

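UMI counts per gene and barcode, raw whole numbers, were deposited for 4 libraries of all barcodes. The submitters' processing notes name Cell Ranger 2.1.1, Seurat 3.1.1 and the mm10 (GRCm38) build, and the matrices list all barcodes, with no cells selected. The gene tables held 27998 (kit 2) and 31053 (kit 3) genes, and the 27514 shared identifiers were used, which left out 0.212% to 0.729% of UMIs. Members and gene lists were chosen with earlier results of these data known, and nothing was fixed without that knowledge.

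Doublets were kept. The Scrublet (scanpy 1.11.5) threshold marked 10, 4, 9 and 2 barcodes, under 0.5% of each library, and was not used. Removing the highest scores at 0.8% per 1000 kept barcodes was an alternative. Intervals of shares are exact (Clopper-Pearson) 95% intervals, and these and all counts of 0, which allow up to 3 counts, cover counting error only. Ratios of tuft cells to others used a prior of 1 CPM, kit differences a prior count of 2, and the split by Siglecf 10 CPM. Barcodes are not replicates, so counts were summed per library and tested in edgeR 4.0.16 (R 4.3.3) by its quasi-likelihood test (TMM scaling, filterByExpr with a minimum count of 10, kit as block, Benjamini-Hochberg adjustment at 0.05), with DESeq2 1.42.0 as an alternative. The edgeR fit was also run on simulated counts, with the same dispersion for every gene and no difference between kits. That is a simpler setting than these data, so the run does not give the error rate here. Libraries of 1 replicate number used the same kit, per the labels, and the number was taken as a pair. Within a kit, deviations of the libraries from their group means had r = 0.238 over 4643 genes, which are not independent. Shares were compared by two-sided exact permutation over 6 arrangements, without the pairing by kit.

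Named genes were the 20 with the highest ratio in the library where that ratio was lowest, and, as fewer than 3 genes were called, 5 genes in each direction with the smallest unadjusted p, the same direction in both kits and at least 20 CPM. Genes of fixed lists were also named. A gene among the 20 is not reported here. Genes of the split by Siglecf, Sct and other single genes were chosen after their values were seen. Other alternatives were UMI floors, mitochondrial limits, numbers of rule genes, thinning, scaling, filters and each library left out.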

Additional observations from a re-analysis of the deposited data

Results flagged for a closer look

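For 16 genes the difference between the labels in tuft cells was not the same as in the other epithelial barcodes of the same libraries, by an interaction test in edgeR with Benjamini-Hochberg adjustment. The values below are the change in tuft cells minus that in the other epithelial barcodes, in log2 units.

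Of the 7 genes that did not have at least 50% of their tuft UMIs in 1 cell, Sct had a value of 2.66, Igfbp5, a binding protein of insulin-like growth factors, 3.02, the replication histones Hist1h2ap and Hist1h1b -2.45 and -2.12, Agr2 -1.91, Anxa6 12.7 and Fxyd2 4.83. Anxa6 had 0 UMIs in tuft cells of both ApcMin libraries, so its fitted value is no bound.

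The other 9 genes had at least 50% of their tuft UMIs in 1 cell. Gpx6 and Gpx5, glutathione peroxidases, had values of -5.21 and -3.22, with 96.1% and 83.3% of their UMIs in 1 cell. Mptx2 had 3.88, Pnoc -4.91, Lrg1 -3.86, Ace 4.01, Sptssb -2.32 and Gkn1 2.02. Rbp4 had -12.4 and 0 UMIs in tuft cells of both VApcMinL libraries, so its fitted value is no bound.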

How the results depend on the processing

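The difference in tuft cell share turned sign when doublets were removed, to 0.0766 points of kept and 0.0871 points of epithelial barcodes, and ranged over the libraries left out from -0.423 to 0.314 and from -0.445 to 0.285 points. It was above 0 without VApcMinL replicate 1 (0.147 and 0.107) and without ApcMin replicate 2. With other UMI floors, mitochondrial limits, rule genes, thinning or the kit 3 pair alone it stayed below 0. The count of genes called between the labels in tuft cells, 1 with the kit block, was 0 with no replicate block (18 at an unadjusted p under 0.05), 0 with DESeq2, 10 at a mitochondrial limit of 10% and 9 with no filter on low counts, and 2 to 20 with 1 library left out and no kit term, where the lone library of a label is assumed to vary like the others. It was 20 without VApcMinL replicate 1, 6 without ApcMin replicate 2 and 4 without ApcMin replicate 1. Thinning tuft cells to at most 5000 UMIs or leaving out those with 3 of 10 cell cycle genes, both chosen after seeing the data, gave 1 call each, again Xist. Interaction calls, 16, were 15 with a replicate block (12 of them shared), 1 with DESeq2 and 10 to 52 with 1 library left out (52 without ApcMin replicate 1, 15 of them among the 16; 10 without VApcMinL replicate 1, 8 shared; 16 without ApcMin replicate 2, 3 shared; 13 without VApcMinL replicate 2, 6 shared). Directions reversed for Olfm4 (-0.94 with doublets removed, -2.97 without VApcMinL replicate 2, range to 8.64), Hist1h2ap (0.39 at 4 rule genes), Jchain (2.63 without ApcMin replicate 1, range from -5.87), and in the interaction for Gpx6 (range over libraries left out -14.77 to 9.02) and Gpx5 (-14.6 to 11.63) without ApcMin replicate 2 and Igfbp5 (-11.66) without VApcMinL replicate 2. The cause was not tested. Of all values of the named genes, those reversed included, 107 of 124 between the labels and 92 of 144 in the interaction kept direction and side of the threshold. With 12 to 42 tuft cells in a library, genes of few UMIs were limited by depth.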

Other observations

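RNA of blood and plasma cells was found in tuft cells at levels that followed the library. The 2 hemoglobin genes Hba-a1 and Hbb-bs summed to 573, 27.8, 2.11 and 5.08 CPM in tuft cells and to 4948, 120, 2.91 and 86.0 CPM in the other epithelial barcodes. Summed B and plasma cell markers stood at 465, 118, 6.33 and 8.88 CPM in tuft cells and at 10810, 2638, 246 and 171 CPM in the other epithelial barcodes. In both kinds of barcode ApcMin replicate 1 had the highest values. Mast cell markers, by contrast, were highest in tuft cells of VApcMinL replicate 1 (13.5, 111, 59.1 and 3.81 CPM), the library with 109 of the 175 mast-type barcodes.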
